A study of Mus musculus with 2 samples.

Results

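The genes described here are the cathepsins, the vacuolar proton pump, the Lamp membrane glycoproteins and the Lamtor proteins of the lysosome, 52 of the 32285 annotated mouse genes counted. They were chosen by symbol: every cathepsin named Cts with 1 further letter except Ctsg, and every gene whose symbol begins with Atp6v, Atp6ap, Lamp or Lamtor followed by its subunit letter or number. By symbol alone that gives 17 cathepsins, 9 Atp6v0 genes, 14 Atp6v1 genes, 3 accessory genes, 4 Lamp genes and 5 Lamtor genes. Atp6v0 names the membrane sector of the pump (V0) and Atp6v1 its cytosolic sector (V1). Atp6v1fnb is counted with V1 only because of its symbol. No UMI was counted for 8 of them in the retained cells (Ctsj, Ctsm, Ctsq, Ctsr, Atp6v1c2, Atp6v1fnb, Atp6ap1l and Lamp5), 8 had 1 to 99 UMIs, and 36 had at least 100.

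Cathepsins are proteases that work in the acid interior of the lysosome, where phagocytes break down what they take up and antigen-presenting cells trim peptides and the invariant chain for MHC class II. The vacuolar ATPase keeps that interior acid: V1 hydrolyses ATP and turns a rotor in V0 that carries protons across the membrane. Lamp1 and Lamp2 line the inner face of the lysosomal membrane, and the 5 Lamtor proteins form Ragulator, the scaffold that holds the Rag GTPases and through them mTORC1 at the lysosome surface.

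The study placed MC38 colon carcinoma cells in female C57BL/6 mice, treated the mice with LC427 or with vehicle, and on day 14 isolated CD45-positive cells from the tumours with magnetic beads for 5′ single-cell RNA sequencing. LC427 is a compound known here by its code name, and the series title names LRBA and CTLA4. Each treatment is 1 library, and the number of mice, their age, and the dose of LC427 are not given in the sources used here, so no difference between LC427 and Vehicle below has a replicate check and no p-value was computed. Intervals are exact 95% intervals that cover counting error only.

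After filtering, 6008 LC427 cells and 5025 Vehicle cells remained, with medians of 2353 and 3494 UMIs per cell, and 47 barcodes occurred in both libraries. Levels are CPM, the UMIs of a gene scaled to the summed UMIs of all cells of a class, and a gene was called measured in a class with at least 20 UMIs over both libraries. Clusters were named from marker lists as monocyte/macrophage-like (3946 LC427 and 3384 Vehicle cells), conventional DC-like (363 and 167), mature regulatory DC-like (159 and 130), T-like (609 and 602) and NK-like (136 and 341). The "-like" is left out from here on. A cluster led by Tm4sf1 and Sox9 (365 LC427 and 181 Vehicle cells) stands where tumour cells were looked for. Tm4sf1 had a UMI in 92.5% of its cells, but Krt8 in 0.549%, Epcam in 0.183% and Krt18 in 0%, while the fibroblast collagens Col1a2 and Col3a1 had one in 79.9% and 88.5%. It is therefore called the Tm4sf1 Sox9 cells and given no cell type, and Ptprc, which encodes CD45, had a UMI in 6.23% of them.

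The promoters of 6 members are shown first because many lysosomal genes carry the E-box CACGTG that TFEB and TFE3, the transcription factors of lysosome biogenesis, are known to bind. Promoters here are 250 bases before to 50 bases after the RefSeq start on GRCm38.p6, and capitals mark CACGTG, which reads the same on both strands. Lamp1 (chr8:13158911-13159210, plus strand) holds 4 matches, and Ctsd (chr7:142387778-142388077, minus strand), Atp6v0b (chr4:117887280-117887579, minus strand) and Lamtor4 (chr5:138255232-138255531, plus strand) hold 2 each. Ctss (chr3:95526536-95526835, plus strand) and Ctsk (chr3:95498960-95499259, plus strand) hold none; their levels follow different cells, as described below.
Lamp1: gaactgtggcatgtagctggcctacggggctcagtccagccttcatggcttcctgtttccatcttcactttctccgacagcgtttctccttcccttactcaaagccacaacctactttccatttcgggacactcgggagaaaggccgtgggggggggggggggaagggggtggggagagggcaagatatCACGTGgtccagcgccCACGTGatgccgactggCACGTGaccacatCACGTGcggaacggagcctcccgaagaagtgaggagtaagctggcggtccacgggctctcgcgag
Ctsd: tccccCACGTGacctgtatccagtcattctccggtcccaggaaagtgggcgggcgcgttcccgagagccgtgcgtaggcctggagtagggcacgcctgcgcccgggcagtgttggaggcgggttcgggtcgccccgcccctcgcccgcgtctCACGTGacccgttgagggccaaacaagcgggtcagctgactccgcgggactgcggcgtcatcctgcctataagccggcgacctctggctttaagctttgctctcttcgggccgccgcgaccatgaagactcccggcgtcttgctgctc
Atp6v0b: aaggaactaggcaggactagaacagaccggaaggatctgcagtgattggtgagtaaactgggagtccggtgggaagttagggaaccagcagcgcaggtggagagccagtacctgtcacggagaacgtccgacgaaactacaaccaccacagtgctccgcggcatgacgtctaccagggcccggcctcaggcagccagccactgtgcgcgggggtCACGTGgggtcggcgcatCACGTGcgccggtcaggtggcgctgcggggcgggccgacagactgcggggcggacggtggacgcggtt
Lamtor4: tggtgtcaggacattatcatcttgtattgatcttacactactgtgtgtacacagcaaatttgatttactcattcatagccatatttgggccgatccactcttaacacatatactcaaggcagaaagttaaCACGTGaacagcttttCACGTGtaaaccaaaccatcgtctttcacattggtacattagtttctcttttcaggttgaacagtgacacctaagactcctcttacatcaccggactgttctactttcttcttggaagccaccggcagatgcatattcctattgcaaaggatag
Ctss: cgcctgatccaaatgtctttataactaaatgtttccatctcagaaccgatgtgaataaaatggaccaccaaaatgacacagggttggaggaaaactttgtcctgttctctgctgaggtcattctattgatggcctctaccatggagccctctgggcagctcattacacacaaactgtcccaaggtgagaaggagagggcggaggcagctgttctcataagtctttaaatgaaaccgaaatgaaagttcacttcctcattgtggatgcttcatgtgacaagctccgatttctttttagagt
Ctsk: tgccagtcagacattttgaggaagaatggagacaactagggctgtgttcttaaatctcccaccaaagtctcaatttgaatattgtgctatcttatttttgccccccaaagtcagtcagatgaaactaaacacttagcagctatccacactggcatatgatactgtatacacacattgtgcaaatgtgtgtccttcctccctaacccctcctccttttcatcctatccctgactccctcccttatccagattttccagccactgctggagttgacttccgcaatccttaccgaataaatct

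A promoter was matched for 40 of the 52 members. CACGTG occurred in 11 of these (27.5%), against 2187 of 27025 genes (8.09%), and the 7-base form TCACGTG, on either strand and overlapping CACGTG, in 9 (22.5%) against 4.29% of all genes. Among genes measured in macrophages the counts were 11 of 27 members and 1085 of 9040 genes. The 11 were Ctsa, Ctsd, Ctsf, Ctsl, Atp6v0b, Atp6v0d1, Atp6v0e, Atp6v1a, Lamp1, Lamtor1 and Lamtor4. That is 3 of 7 V0 genes and 1 of 10 V1 genes with a matched promoter. The V1 genes Atp6v1b2, Atp6v1c1, Atp6v1g1 and Atp6v1h had none matched, while Atp6v1c2 and Atp6v1fnb, without a UMI, are among the 10. The sectors are therefore not compared. A match describes the letters in the window and says nothing of binding in these cells.

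Among the 6 classes compared, the lysosomal genes were mostly genes of the macrophages. The 52 members held 1.22% of all macrophage UMIs in LC427 and 1.33% in Vehicle, against 0.713% and 0.689% in conventional DCs, 0.484% and 0.499% in mature regulatory DCs, 0.340% and 0.409% in Tm4sf1 Sox9 cells, 0.309% and 0.300% in T cells, and 0.315% and 0.320% in NK cells. Of 32 members above 50 CPM in some class, 22 were highest in macrophages in both libraries. The same share was not formed over all genes above 50 CPM. Droplets of 10 to 100 UMIs, which hold free RNA and no cell, had 0.834% and 0.763%, so all classes here except the macrophages lay below the empty droplets. Free RNA was estimated, from macrophage markers alone, at 2.41% to 13.6% of the UMIs in T, NK and Tm4sf1 Sox9 cells. The part of free RNA in the member levels of these classes was not tested.

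Among the cathepsins, Ctss, the cysteine protease that degrades the invariant chain (chr3:95526786-95556403), stood at 2607 CPM in LC427 macrophages and 2317 in Vehicle macrophages, then at 1810 and 1399 in conventional DCs and 929 and 713 in mature regulatory DCs. T cells had 156 CPM in LC427 and 98.1 in Vehicle, which is 1.14 and 0.652 times what free RNA alone would give at shares of 9.76% and 12.4% estimated from macrophage markers. In Tm4sf1 Sox9 cells Ctss had 19.5 CPM in LC427 and 51.6 in Vehicle (0.576 and 0.661 times free RNA). The estimate counts every macrophage-marker UMI in these classes as free RNA. By it Ctsl in T cells stood at 0.700 times free RNA in LC427 and 0.287 in Vehicle, so the shares may be too high. The part of free RNA in these Ctss levels was not tested.

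Ctsc, the dipeptidyl peptidase that activates granule serine proteases, followed the same order, at 1260 and 1190 CPM in macrophages, 556 and 511 in conventional DCs, and 143 and 93.6 in mature regulatory DCs. In T cells it had 87.6 and 67.7 CPM, 1.17 and 0.827 times free RNA. Macrophages were also highest for Ctsb, a cysteine endopeptidase, at 934 CPM in LC427 and 1383 in Vehicle, with 211 and 292 in conventional DCs and 172 and 222 in Tm4sf1 Sox9 cells. Ctsh, an aminopeptidase, did not follow this order. It stood at 284 and 282 CPM in macrophages, 246 and 242 in conventional DCs and 290 and 347 in mature regulatory DCs, and at 11.7 and 9.19 in T cells.

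Ctsw and Ctsl were likewise highest outside the macrophages, and Ctsd, although highest in macrophages, was also high in lymphocytes. Ctsw (chr19:5465043-5468507), a cathepsin of cytotoxic lymphocytes, had 591 CPM in LC427 NK cells and 399 in Vehicle NK cells, 455 and 388 in T cells, and 4.31 and 1.46 in macrophages, where free RNA had 31.9 and 24.9. With every cell thinned to 1000 UMIs, 36.9% of LC427 T cells and 35.0% of Vehicle T cells had a Ctsw UMI, against 0.329% and 0.0591% of macrophages. Unthinned, the T cell shares were 54.4% and 62.1%, at median depths of 1673 and 2482 UMIs.

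Ctsd (chr7:142375911-142388038), the main aspartic protease of the lysosome, had 863 CPM in LC427 macrophages and 1128 in Vehicle macrophages, 638 and 668 in NK cells, and 408 and 404 in T cells. Its level in lymphocytes was above the free-RNA estimate, which was 49.2 and 43.3 CPM in NK cells and 35.2 and 45.4 CPM in T cells. Ctsl (chr13:64359337-64370890), a cysteine endopeptidase, was highest in the Tm4sf1 Sox9 cells, at 736 and 887 CPM, with 580 and 780 in macrophages, 87.5 and 55.7 in conventional DCs and 23.5 and 12.6 in T cells. That is 89.0 and 39.1 times the free-RNA level in Tm4sf1 Sox9 cells, but below it in T cells in both libraries.

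**Figure D1:**
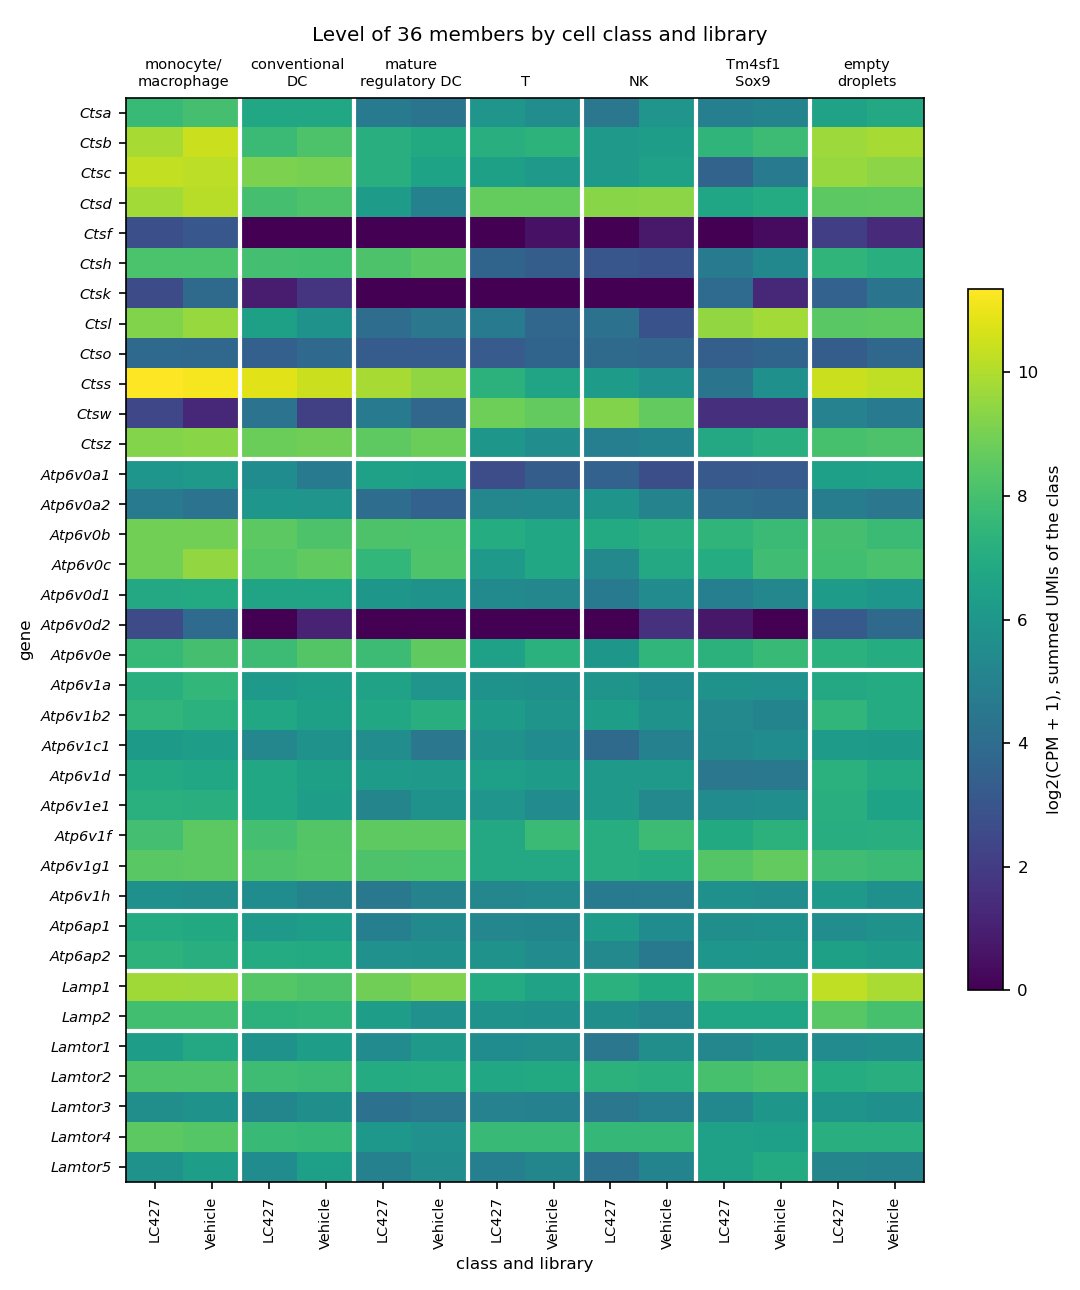
Level of the 36 members with at least 100 UMIs (rows, grouped by role) in each cell class and in empty droplets (columns, LC427 left of Vehicle), coloured by log2(CPM + 1) of summed UMIs. Most rows are brightest in macrophages, as Ctss with 2607 CPM in LC427 and 2317 in Vehicle, while Ctsw is brightest in NK cells at 591 and 399 CPM.

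Among pump genes above 50 CPM, Atp6v0a1 and Atp6v0c differed most between classes, 16.0-fold in LC427 and 15.2-fold in Vehicle for Atp6v0a1 and 12.3-fold and 6.64-fold for Atp6v0c. Atp6v0c (chr17:24163866-24169702), the proteolipid of the rotor ring, had 483 CPM in LC427 macrophages and 722 in Vehicle macrophages, 330 and 379 in conventional DCs, 70.4 and 109 in T cells and 128 and 230 in Tm4sf1 Sox9 cells. The a subunits of V0, which form the path of the protons and direct the pump to a membrane, differed in their order. Atp6v0a1 had 61.6 and 67.9 CPM in macrophages, 87.9 and 84.6 in mature regulatory DCs and 5.48 and 9.19 in T cells. Empty droplets had 83.0 and 90.2 CPM. Its lowest classes, T cells in LC427 and NK cells in Vehicle, stood at 0.676 and 0.520 times the free-RNA estimate. Atp6v0a2 had 25.1 and 18.7 CPM in macrophages, but 60.8 and 60.2 in conventional DCs and 57.0 and 32.6 in NK cells. Of the V1 genes, Atp6v1f, the F subunit of the central stalk, had 251 and 353 CPM in macrophages and 367 and 371 in mature regulatory DCs.

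Atp6v0e, the small e subunit of V0, was highest in DCs, with 221 and 314 CPM in conventional DCs, 217 and 383 in mature regulatory DCs and 193 and 258 in macrophages. Atp6v1g1, a G subunit of V1, was highest in macrophages in LC427 and in Tm4sf1 Sox9 cells in Vehicle, with 345 and 363 CPM in macrophages and 314 and 396 in Tm4sf1 Sox9 cells. The pump genes given next were highest in macrophages in both libraries. Atp6v0b, a further rotor subunit, had 482 CPM in both libraries in macrophages and 131 in LC427 and 110 in Vehicle T cells. Atp6v1b2 had 174 and 153 CPM in macrophages and 39.7 and 33.5 in Tm4sf1 Sox9 cells, and Atp6v1d had 123 and 112 in macrophages and 21.5 and 22.1 in Tm4sf1 Sox9 cells. Atp6v1c1, the C subunit of V1, had 71.6 and 80.4 CPM in macrophages and 14.2 and 30.5 in NK cells, and Atp6v1e1, of the peripheral stalk, had 147 and 143 in macrophages and 60.2 and 44.0 in T cells. The accessory genes behaved alike, Atp6ap1 with 126 and 119 CPM in macrophages and 37.6 and 36.3 in T cells, and Atp6ap2 with 159 and 138 in macrophages and 54.8 and 43.0 in T cells. T, NK and Tm4sf1 Sox9 levels of Atp6v1b2, Atp6v1c1, Atp6v1d and Atp6v1e1 lay below those of empty droplets in both libraries. They were still above what free RNA alone would give at its estimated share of each class. The levels ran from 1.40 times that amount (Atp6v1c1 in LC427 NK cells) to 21.4 times (Atp6v1c1 in LC427 Tm4sf1 Sox9 cells).

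Lamp1, the most widely used lysosome marker, had 845 CPM in LC427 macrophages and 821 in Vehicle macrophages, 474 and 569 in mature regulatory DCs and 235 and 212 in Tm4sf1 Sox9 cells. In T cells Lamp1 stood at 126 and 91.9 CPM, 1.04 and 0.777 times free RNA. Lamp3, whose product DC-LAMP is known as a marker of mature human DCs, had 2 UMIs in all LC427 cells and 1 in all Vehicle cells, with 0 in the mature regulatory DCs. Lamtor2, a subunit of Ragulator, was spread more evenly, at 300 and 299 CPM in macrophages and 266 and 296 in Tm4sf1 Sox9 cells. Lamp2 had 242 and 238 CPM in macrophages and 54.0 and 50.8 in T cells. Lamtor4 had 355 and 324 CPM in macrophages and 65.9 and 52.2 in mature regulatory DCs. Lamtor5 was highest in Tm4sf1 Sox9 cells, at 88.9 and 120 CPM, with 53.4 and 81.6 in macrophages, and Lamtor3 had 38.8 and 63.3 CPM in Tm4sf1 Sox9 cells and 48.1 and 54.8 in macrophages.

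For pairs of classes, a member was counted if it had at least 20 UMIs over both classes together in each library, and a count of 0 was set to the floor of 3 UMIs, which gives a bound. By this count 24 of 37 were at least 2-fold higher in macrophages than in T cells in both libraries, where 14.0% of all genes were. Their median difference was 1.33 on the log2 scale in LC427 and 1.71 in Vehicle, against -0.22 and -0.26 over all genes. Against NK cells it was 21 of 36 (11.8% of all genes), against Tm4sf1 Sox9 cells 24 of 37 (15.0%), against mature regulatory DCs 14 of 36 (13.2%), and against conventional DCs 9 of 36 (5.10%). Bounds make up 3 of the 24 against T cells (Ctsk, Atp6v0d2 and Ctsf), 2 of the 24 against Tm4sf1 Sox9 cells and 2 of the 9 against conventional DCs. Plasmacytoid DCs, with 58 LC427 and 42 Vehicle cells, fell short of the 100 cells per library asked of a compared class. Against them 3 of 36 members were at least 2-fold higher in macrophages in both libraries (Ctss, Ctsc and Lamp1). At least 2-fold lower were 3 (Ctso, Atp6v0a2 and Ctsw), and shares over all genes are not given for this pair. The median difference was 0.32 in LC427 and 0.72 in Vehicle, against 0.00 over all genes in both. The fold over T cells was 24.7 in LC427 and 62.0 in Vehicle for Ctsl and 16.7 and 23.6 for Ctss. It did not reach 2-fold for Lamtor4, another Ragulator subunit (1.71 and 1.64), or for Atp6v1h, the H subunit of V1 (1.37 and 1.13), and was below 1 for Atp6v0a2 (0.667 and 0.483). These ratios were formed without taking free RNA off either class. In the other direction, 2 members were at least 2-fold lower in macrophages than in T cells in both libraries (16.3% of all genes), Ctsw and Atp6v1g2, a G subunit known from neurons. Ctsw alone was lower than in NK cells (7.73%) and in mature regulatory DCs (8.61%), Ctsw and Atp6v0a2 lower than in conventional DCs (3.61%), and Atp6v1g2 alone lower than in Tm4sf1 Sox9 cells (26.8%).

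Within the macrophages, the endopeptidases Ctsb, Ctsd and Ctsl differed more between states than Ctss, Lamp1 or the abundant pump genes. Clusters are called by their leading genes, and 7 states had at least 100 cells in both libraries. Ctsb stood at 2044 CPM in LC427 and 2379 in Vehicle in the Folr2 Cbr2 state, a pair of genes known from tissue-resident macrophages, and at 1962 and 2099 in the Mmp13 Hilpda state. It stood at 503 and 928 in the Ly6i Nos2 state and at 460 and 517 in the Trem1 F10 state. The highest state was therefore 4.44 times the lowest in LC427 and 4.60 times in Vehicle.

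Ctsl ran over the widest range of the abundant members, with 1695 CPM in LC427 and 1927 in Vehicle in the Mmp13 Hilpda state, against 230 and 332 in the Ly6c2 Plac8 state, a pair known from monocytes (7.37-fold and 5.80-fold). Ctsd had 1986 and 1823 CPM in the Mmp13 Hilpda state, 1653 and 1849 in the Folr2 Cbr2 state and 412 and 547 in the Ly6c2 Plac8 state. Ctss went the other way. Its highest state was Ly6i Nos2 (Nos2 is the inducible nitric oxide synthase), at 3246 CPM in LC427 and 3436 in Vehicle, and its lowest was the cycling state, at 2024 and 1694, a range of 1.60-fold and 2.03-fold.

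Ctsc was lowest in the Mmp13 Hilpda state, at 548 and 837 CPM, and highest in the Ly6i Nos2 state, at 1569 and 1608. Lamp1 ranged 2.26-fold in LC427 and 2.18-fold in Vehicle, with 1396 and 1183 CPM in the Folr2 Cbr2 state. Atp6v0a1 was the V0 gene that differed most among the abundant ones, 3.58-fold in LC427 and 2.74-fold in Vehicle. The highest state exceeded the lowest 2.52-fold and 2.37-fold for Atp6v1a, the catalytic A subunit of V1, 1.55-fold in both libraries for Atp6v0c, 1.33-fold and 1.17-fold for Atp6v0b, and 1.21-fold and 1.22-fold for Lamtor4. Atp6v0d2 (chr4:19876841-19922605), a form of the rotor's d subunit that osteoclasts and some macrophages use, had 34.2 and 48.7 CPM in the Mmp13 Hilpda state and 7.71 and 23.9 in the Folr2 Cbr2 state, where free RNA had 8.40 and 14.1.

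In both libraries, 5 of 33 members were at least 2-fold higher in Folr2 Cbr2 than in Ly6i Nos2 macrophages (4.85% of all genes), namely Ctsb, Ctsd, Ctsf, Ctsl and Atp6v0a1, and 0 were at least 2-fold lower (4.57%). Mmp13 Hilpda macrophages were at least 2-fold above Ly6i Nos2 macrophages for 5 of 34 members (2.82%), Ctsb, Ctsd, Ctsk, Ctsl and Atp6v0d2, and below them for Atp6v0a2 (4.31%). Above Trem1 F10 macrophages they had the same 5 and Atp6v1a, or 6 of 34 (1.97%), and 0 lay below (2.25%). The members were left out of the variable genes used for clustering. The clusters were formed on the same cells, so the state levels describe the clusters and are no independent test of them.

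**Figure D2:**
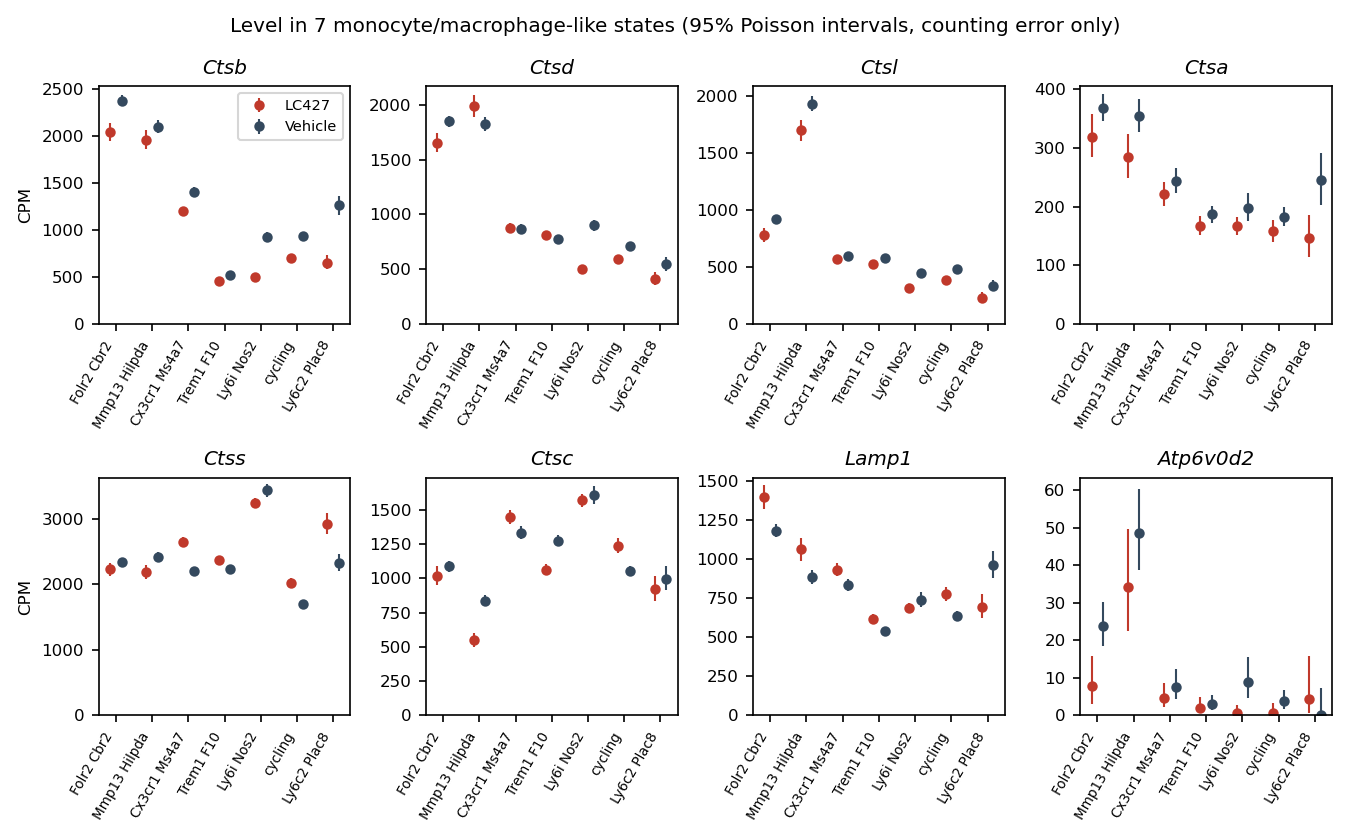
Level of 8 members (CPM of the state total, linear axes from 0) in the 7 macrophage states, LC427 left of Vehicle, with exact 95% Poisson intervals for counting error. Ctsb, Ctsd and Ctsl are high in the Folr2 Cbr2 and Mmp13 Hilpda states, and Ctss is highest in Ly6i Nos2 at 3246 and 3436 CPM.

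Between the treatments, few members passed 1.5-fold in macrophages. The median ratio of LC427 to Vehicle over the 37 members measured in macrophages was -0.07 on the log2 scale, against 0.13 over all genes, and 29 of the 37 lay below the median of all genes. Lower by at least 1.5-fold in LC427 were 3 of 37 members (Ctsk, Atp6v0d2 and Lamtor5, 6.30% of all genes), and higher was 1 (Ctsw, 10.9%). Atp6v0d2 rests on 59 LC427 and 219 Vehicle UMIs. Its LC427 level lay below the 8.40 CPM of empty droplets, and its Vehicle level was 14.5 CPM against 14.1 there. With all ratios centred on the median gene, 7 were lower (9.55% of all genes) and 1 was higher (6.27%), the added ones being Ctsb, Atp6v0c, Atp6v1f and Lamtor1. By role, the median log2 ratio was -0.20 for 12 cathepsins, -0.14 for 7 V0 genes, 0.03 for 9 V1 genes, 0.14 for 2 accessory proteins, 0.03 for 2 Lamp genes and -0.19 for 5 Lamtor genes.

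Ctsb was at 0.676 times its Vehicle level in LC427 macrophages (0.660 to 0.692), Ctsl at 0.743 (0.721 to 0.766) and Ctsd at 0.766 (0.747 to 0.785). The libraries also differed in which states they held. The Ly6i Nos2 state, low in these 3 genes, had 978 LC427 and 352 Vehicle cells, and the Folr2 Cbr2 state, high in them, had 295 and 670. Within states the Ctsb ratio was nearer 1 in Folr2 Cbr2 (0.859), Mmp13 Hilpda (0.934), Cx3cr1 Ms4a7 (0.856) and Trem1 F10 (0.891), and lower in Ly6i Nos2 (0.542, 0.501 to 0.586) and Ly6c2 Plac8 (0.517, 0.449 to 0.594). Ctsd in the Ly6i Nos2 state had 500 CPM in LC427 and 899 in Vehicle, a ratio of 0.556 (0.514 to 0.602).

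Ctss was higher in LC427 macrophages, at 1.13 times its Vehicle level (1.11 to 1.14), and Ctsc was at 1.06 and Lamp1 at 1.03 times. For Ctss this is close to the median gene, and it lay below the median of all genes in 4 of 7 states. Ctsw, at 2.96 times (1.76 to 5.14), rests on 49 LC427 and 22 Vehicle UMIs, at a level below that of free RNA in both libraries. Free RNA was estimated from T and NK cell markers at 8.91% of LC427 and 5.05% of Vehicle macrophage UMIs. The Ctsw log2 ratio, 1.56 as reported, ran from 1.10 to 2.94 over 13 other settings, among them subtraction of the empty-droplet profile. The part of free RNA in this ratio was not tested beyond that.

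**Figure D3:**
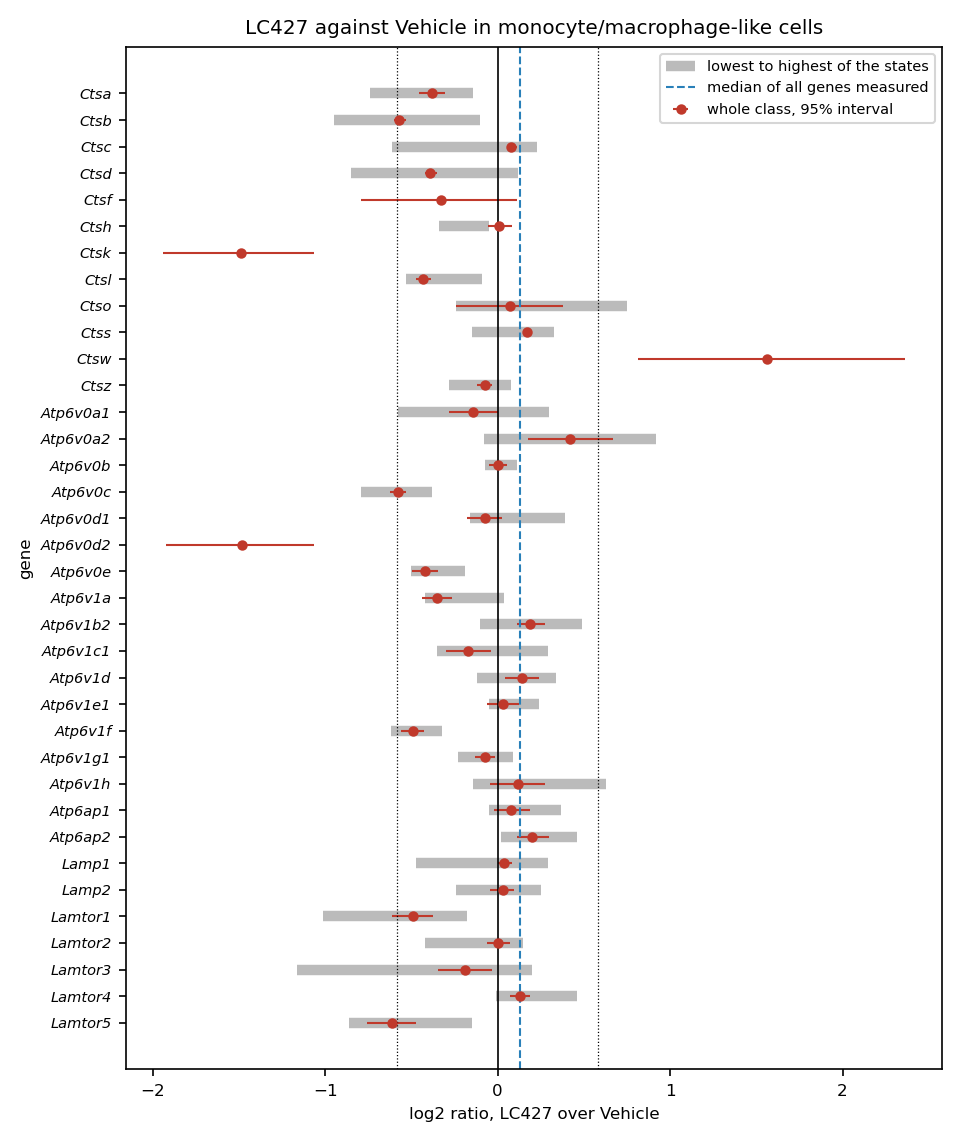
Log2 ratio of LC427 over Vehicle in macrophages for the 36 members with at least 100 UMIs in all cells, in order of role; points are the whole class with exact 95% counting intervals, grey bars run over the states for members measured in at least 5, the dashed line is the median of all genes (0.13) and dotted lines mark 1.5-fold. Ctsk and Atp6v0d2 lie farthest to the left and Ctsw farthest to the right.

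By state, 1 of 32 members was at least 1.5-fold lower in LC427 in Trem1 F10 (6.27% of all genes), 2 of 34 in Cx3cr1 Ms4a7 (5.23%), 4 of 32 in Ly6i Nos2 (6.87%), 1 of 34 in Folr2 Cbr2 (8.79%), 3 of 34 in the cycling state (7.93%), 3 of 34 in Mmp13 Hilpda (11.3%) and 5 of 30 in Ly6c2 Plac8 (13.6%). Higher were 0 in Trem1 F10 (15.9%) and Ly6i Nos2 (20.4%), and 1 each in Cx3cr1 Ms4a7 (15.8%), Folr2 Cbr2 (15.8%), cycling (12.1%), Mmp13 Hilpda (14.3%) and Ly6c2 Plac8 (15.1%). Atp6v0c passed 1.5-fold in 4 of these states, Ly6i Nos2 (0.580), cycling (0.656), Mmp13 Hilpda (0.656) and Ly6c2 Plac8 (0.657).

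Some members were lower in LC427 in every state. Of 30 members measured in all 7 macrophage states, 9 were below 1 in all 7 (8.52% of 5059 genes measured there) and 1, Atp6ap2, the prorenin receptor and pump accessory protein, was above 1 in all 7 (19.5%). The 9 were Ctsa, Ctsb, Ctsh, Ctsl, Atp6v0c, Atp6v0e, Atp6v1f, Lamtor1 and Lamtor5. Ctsh is among them although its ratio over the whole class was 1.01. Of 27 members measured in all 6 cell classes compared, the last 5 were also below 1 in all 6 (8.24% of 4065 genes measured there), the conventional DCs, mature regulatory DCs, T, NK and Tm4sf1 Sox9 cells included.

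Atp6v0c had a ratio of 0.669 in macrophages (0.648 to 0.691), 0.340 in NK cells and 0.557 in Tm4sf1 Sox9 cells. Atp6v0e was at 0.567 in mature regulatory DCs (0.442 to 0.723), and had 88.4 CPM in LC427 and 149 in Vehicle T cells. Lamtor5 was at 0.654 in macrophages (0.592 to 0.721), and in conventional DCs at 44.2 CPM in LC427 and 84.1 in Vehicle. Lamtor1, the lipid-anchored subunit that fixes Ragulator to the membrane, had 80.2 and 113 CPM in macrophages, a ratio of 0.710. The transcripts of these 5 genes had a median of 1119 bases (703 to 2812) against 2049 (668 to 6168) over the 37 measured members. Atp6v0e, at 2812 bases, is longer than that median, and Lamtor2 (668 bases) and Lamtor4 (877 bases) are short but stood at ratios of 1.00 and 1.10 in macrophages. Over all genes in macrophages the median log2 ratio was -0.08 for 912 genes under 1000 bases and 0.15 for 10611 longer ones. The part of transcript length in these ratios was not tested.

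Further ratios passed 1.5-fold in single classes, with intervals that lie clear of 1. Atp6v1f was at 0.554 in T cells (0.457 to 0.670), at 0.551 (0.441 to 0.685) in their CD8 T subset of 442 LC427 and 328 Vehicle cells, and at 0.650 (0.579 to 0.729) in the Ly6i Nos2 state. Atp6v0e was at 0.581 in CD8 T cells and 0.360 in NK cells, and Lamtor3, which pairs with Lamtor2 in Ragulator, at 0.613 (0.503 to 0.745) in Tm4sf1 Sox9 cells. Lamtor5 was at 0.550 (0.436 to 0.690) in the Trem1 F10 state and at 0.510 in the Ccl17 Plet1 subset of conventional DCs, where Ctsb was at 0.605. Ctsc was at 0.654 (0.586 to 0.729) in the Mmp13 Hilpda state, and Atp6v0d2 at 0.323 (0.125 to 0.701) in the Folr2 Cbr2 state. Ratios above 1.5 for Ctss (1.84) and Ctsl (3.05) in CD8 T cells, and for Ctsw in conventional DCs (5.62) and cycling macrophages (3.86), belong to levels below those of empty droplets.

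In NK cells the largest cells weighed on the ratios. Without cells of at least 10000 UMIs, which left 136 LC427 and 319 of 341 Vehicle cells, the Atp6v0c ratio was 0.498 in place of 0.340, Lamtor5 0.804 in place of 0.524, and Ctsw 1.07 in place of 1.48. In the other classes the members past 1.5-fold were read against all genes. Of 33 members measured in conventional DCs, 1 was lower and 3 were higher in LC427 (8.22% and 14.5% of all genes). Of 29 in mature regulatory DCs, 5 were lower and 5 higher (10.5% and 18.2%), among them Ctsd, with 76.9 CPM in LC427 and 30.6 in Vehicle (35 and 17 UMIs, under the free-RNA levels of 361 and 366 CPM). Of 33 in T cells, 4 were lower and 2 higher (9.17% and 12.9%), and of 34 in Tm4sf1 Sox9 cells, 5 were lower and 2 higher (10.4% and 8.57%). Of 30 in NK cells, 8 were lower and 4 higher (16.6% and 23.0%).

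Members with CACGTG in the promoter had a median log2 ratio of -0.35 in macrophages (11 genes, -0.49 to 0.13, 8 of them below 0), and members without it 0.03 (16 genes, -1.49 to 0.20, 6 below 0). These cover 27 of the 37 measured members, as the rest, Ctsb among them, had no matched promoter. The same medians were not formed over all genes with and without the motif, so a link to the motif was not tested. The macrophage-to-T difference was alike in both sets, with medians of 1.34 in LC427 and 1.84 in Vehicle with the motif, and 1.48 and 1.71 without it.

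Ctsk, the collagen-degrading cathepsin best known from osteoclasts (chr3:95499256-95509362), was set by very few cells. In macrophages it had 57 UMIs in LC427 and 213 in Vehicle, or 5.01 and 14.1 CPM, a ratio of 0.355 (0.261 to 0.478). In the cycling state, 2 Vehicle cells held 136 and 19 of these UMIs, and in the Mmp13 Hilpda state 1 LC427 cell held 29. Without cells of at least 10 Ctsk UMIs the levels were 2.46 CPM in LC427 and 3.85 in Vehicle, a ratio of 0.641 (0.393 to 1.02). With cells of at most 5% mitochondrial UMIs, and with cells assigned by their own marker UMIs, the log2 ratio was 0.38 in place of -1.49, so no direction is given. In Tm4sf1 Sox9 cells the ratio of 9.86 likewise rests on 1 LC427 cell with 65 UMIs.

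Of the 1010 Ctsk UMIs in LC427 cells and 748 in Vehicle cells, 860 and 474 lay in 1 small cluster. It held 40 LC427 and 38 Vehicle cells, had Ctsk as its first leading gene and is called here by Mmp9 and S100a9. The marker lists named it neutrophil, but its cells rich in Ctsk lacked granulocyte genes, as described below, so that name is not used for the cluster. Within it, 12 of 40 LC427 cells (30.0%, 16.6 to 46.5) and 3 of 38 Vehicle cells (7.89%, 1.66 to 21.4) had at least 10 Ctsk UMIs. Over each library that is 0.200% of LC427 cells (0.103 to 0.349) and 0.0597% of Vehicle cells (0.0123 to 0.174). With such cells of all clusters counted, it is 14 of 6008 LC427 cells (0.233%, 0.127 to 0.391) and 5 of 5025 Vehicle cells (0.0995%, 0.0323 to 0.232). The cutoff of 10 and the genes described next were chosen after their values were seen.

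**Figure D4:**
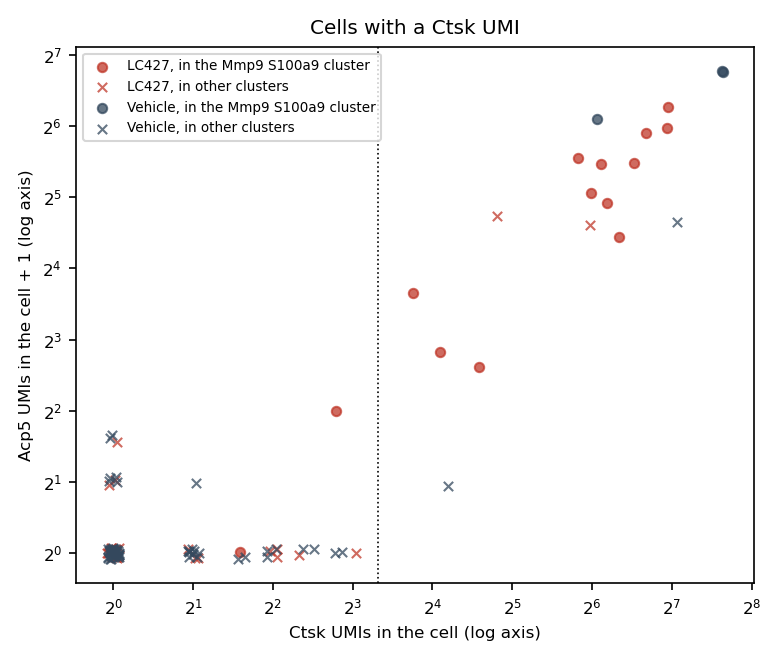
Acp5 UMIs + 1 against Ctsk UMIs of each cell with a Ctsk UMI (log axes, points jittered), LC427 and Vehicle by colour, circles for the Mmp9 S100a9 cluster and crosses for other clusters, with a dotted line at 10 Ctsk UMIs. The 15 circles to the right of the line carry 14 to 208 Ctsk UMIs and stand high in Acp5.

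The 15 cells had a median of 71 Ctsk UMIs (14 to 208) and of 5670 UMIs in all, while the other 63 cells of the cluster had 0 to 7 Ctsk UMIs and a median of 1914 UMIs. They also carried genes of the osteoclast programme. The cells were picked by Ctsk within a cluster formed over variable genes, so these levels, with both libraries summed, describe the cells and test nothing. Acp5, the tartrate-resistant acid phosphatase, had 8030 CPM in them and 20.7 in macrophages and was found in 15 of 15 cells. Mmp9, a gelatinase, had 11503 CPM, also in 15 of 15. Ocstamp, needed for osteoclast fusion, and Nfatc1, the transcription factor of osteoclast differentiation, had a UMI in 14 each, and Oscar, an osteoclast-associated receptor, in 7. Calcr, the calcitonin receptor, was at 0. The granulocyte genes S100a8, S100a9, Hdc and Csf3r were at 0 too, although S100a9 is a leading gene of the cluster as a whole. In the other 63 cells S100a8 had 1462 CPM, S100a9 1207, Hdc 1254 and Csf3r 184, so the cluster joined cells of unlike profile.

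The pump genes were high in these cells. Atp6v0d2 had 507 CPM against 10.4 in macrophages, 49.0 times as high, with a UMI in 13 of 15 cells. Atp6v1b2, the B subunit that completes the ATP-binding sites, had 1669 CPM against 162 (10.3-fold), and Atp6v1d, of the central stalk, was 5.70-fold, Atp6v1c1 4.28-fold, Atp6v1a 4.14-fold and Atp6v0b 4.12-fold higher. The other d subunit, Atp6v0d1, was at 1.04 times the macrophage level, and Atp6v0a1 had 0 UMIs, against 65.1 CPM in macrophages. Tcirg1, which encodes the a3 subunit used at the osteoclast's bone-facing membrane, had 789 CPM (4.37-fold), and Clcn7, the lysosomal chloride-proton exchanger, 553 (9.78-fold). Several cathepsins were lower instead, Ctsd at 0.522, Ctsb at 0.549, Ctss at 0.171, Ctsl at 0.0975 and Ctsc at 0.0277 times the macrophage level. Ctsa, or protective protein, a carboxypeptidase, was higher, at 462 against 231 CPM (2.00-fold). Lamp1 had 56.4 CPM against 832 in macrophages (0.0678 times), and Lamp2 was at 0.141 times. These are 15 cells of 2 libraries picked by their Ctsk counts, and no cell type is named from them.

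**Figure D5:**
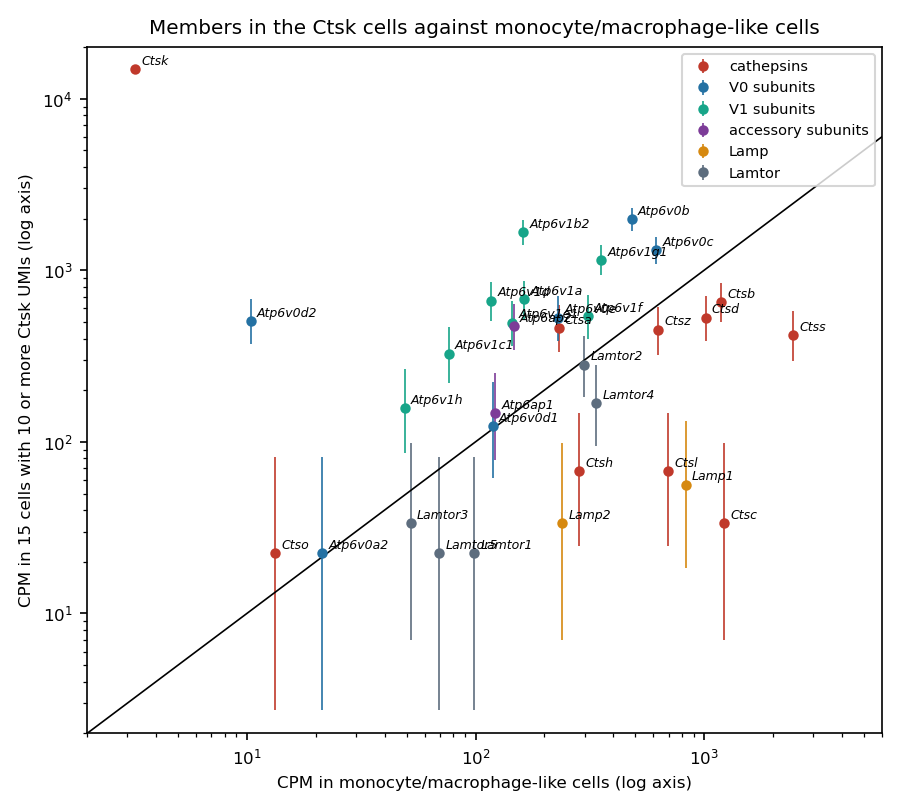
CPM of each member with a UMI in the 15 Ctsk cells of the Mmp9 S100a9 cluster (vertical, exact 95% Poisson intervals) against its CPM in macrophages (horizontal), both libraries summed, log axes, coloured by role, with a line of equal levels. Pump genes lie mostly above the line, as Atp6v0d2 at 507 against 10.4 CPM, and Lamp1 lies below it at 56.4 against 832 CPM.

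The wider lysosome was read from 87 further genes in 7 lists, of which 82 were measured in macrophages. In LC427 macrophages 8 were at least 1.5-fold lower than in Vehicle macrophages and 4 were higher, with a median log2 ratio of 0.04. Over all genes 6.30% were lower and 10.9% higher, with a median of 0.13. Of 35 other hydrolases, 2 were lower and 1 was higher. Tpp1, a tripeptidyl peptidase, had 61.4 CPM in LC427 and 94.3 in Vehicle (0.651), and Idua, which degrades glycosaminoglycans, 6.51 and 10.3 (0.630). The gene higher in LC427 was Lyz1, at 7.83 and 3.71 CPM, below its level in free RNA.

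Of 16 membrane and transport genes, 2 were lower and 2 were higher. Cd68, the macrophage member of the LAMP family, had 116 CPM in LC427 macrophages and 242 in Vehicle macrophages (0.480, 0.451 to 0.512), and Cd63, a tetraspanin of late endosomes, 317 and 494 (0.642). Clcn7 had 78.8 and 39.7 CPM (1.98, 1.79 to 2.20), and Slc11a1, a metal transporter of phagosomes, 99.9 and 64.8 (1.54). Thus Cd68 and Clcn7 stood on opposite sides of 1 while Lamp1 stood at 1.03.

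Of 8 pump genes outside the symbol rule, Rnasek had 107 CPM in LC427 and 182 in Vehicle (0.589), Tmem9 4.49 and 7.61 (0.589), and Tcirg1 201 and 165 (1.22). Of 5 measured protease inhibitors, 2 were lower and 0 were higher. Cst7, or cystatin F, had 2.73 and 4.70 CPM (0.580), below its free-RNA levels of 12.4 and 22.8 CPM. Serpinb6a had 71.8 and 120 CPM (0.598), where free RNA had 115 and 107. Among 9 measured partners of Ragulator, Mlst8, a subunit of mTORC1, was higher at 6.33 and 3.91 CPM (1.62). None of 4 transcription factors and none of 5 delivery receptors passed 1.5-fold in either direction. Tfeb, the best known of the factors, had 17.8 CPM in LC427 and 12.8 in Vehicle macrophages, 1.39 times.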

How the data were processed

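The deposited UMI counts of 2 unfiltered matrices were used; a Cell Ranger 4 writer is named per the file headers, whereas version 3.0.1, together with Seurat 3 and the GRCm38 (mm10) build, is given per the submitters' processing notes, so the version is uncertain. The authors' deposited tables give a mean signal and a log2 fold per cluster, per the file headers.

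Cells needed at least 1000 UMIs, 400 genes and at most 10% mitochondrial UMIs. A doublet caller marked 0 LC427 and 2 Vehicle barcodes and is regarded as having failed; the 320 and 220 highest scores (0.8% per 1000 cells) were left out instead. Cells were clustered with scanpy 1.11.5 and leidenalg 0.10.2 (2000 genes, 30 components, 20 neighbours, resolution 1). The rule that names clusters from markers was written after the clusters were seen, and members and lists were chosen with earlier results of these data known.

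UMIs were summed per library and class. CPM has exact Poisson intervals, ratios conditional binomial ones and shares Clopper-Pearson ones; UMIs of 1 cell are not independent. The summing was tested on simulated data. Named were members at least 1.5-fold different with an interval beyond 1.25-fold, in each role up to 4 genes over 50 CPM with the widest range over classes, members at 0 UMIs, and pathway genes past 1.5-fold. Shares were thinned to 1000 UMIs. Ratios against 0 use a floor of 3 counts. In total, 13 planned and 2 added alternatives were run.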

Additional observations from a re-analysis of the deposited data

Results flagged for a closer look

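For Ctsk, Ctss and Ctsc the ratio of LC427 to Vehicle passed 1.5-fold in opposite directions, with both counting intervals clear of 1, between cell classes or between states, and none of these differences was tested. Ctsk was at 0.355 in macrophages and 9.86 in Tm4sf1 Sox9 cells, and at 0.0200 in cycling and 4.67 in Mmp13 Hilpda macrophages, values that turn on single cells rich in Ctsk. Ctss was at 0.378 in Tm4sf1 Sox9 cells and 1.59 in T cells, and in both classes its level was near or below the free-RNA estimate. Ctsc was at 0.460 in Tm4sf1 Sox9 cells, also below free RNA, and at 1.53 in mature regulatory DCs. There it rests on 65 LC427 and 52 Vehicle UMIs, at levels under the 764 and 659 CPM of empty droplets.

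Cells with at least 10 Ctsk UMIs in the Mmp9 S100a9 cluster, which enters no comparison between classes, numbered 12 in LC427 and 3 in Vehicle.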

How the results depend on the processing

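No paired analysis was possible because each treatment is 1 library. Over the settings tried, 2 to 7 members were at least 1.5-fold lower in LC427 macrophages (3 as reported), their median log2 ratio ran from -0.21 to 0.00 (-0.07), and 21 to 24 members were at least 2-fold higher in macrophages than in T cells (24). The count of higher members (1) was 0 with cells thinned to 1000 UMIs, 0 among genes of at least 100 UMIs and 2 among genes of at least 1 UMI. Centring on the median gene gave 7 lower members and a median of -0.21. Ctsk reversed to a log2 ratio of 0.38 with at most 5% mitochondrial UMIs and to 0.38 with cells assigned by their own marker UMIs; the cause was not tested. Ctsb (-0.70 to -0.42), Ctsd (-0.52 to -0.21), Ctsl (-0.56 to -0.28), Ctss (0.04 to 0.20), Atp6v0c (-0.71 to -0.52), Atp6v0d2 (-1.66 to -0.94) and Lamtor5 (-0.75 to -0.49) kept their direction in 15 of 15 settings, and Lamp1 in 11. The mean over the 7 states, chosen after seeing the data, gave 2 lower, 1 higher and a median of -0.02. With 1 library each, treatment, animal and library cannot be told apart, and a ratio for a gene below its free-RNA level says little of the cells it is given for.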

Other observations

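In the authors' deposited tables, which hold 11 clusters for LC427 and 13 for Vehicle, Ctsk, Acp5 and Atp6v0d2 were each highest in the authors' cluster 1 in both libraries. Ctsd and Folr2 were highest there in both libraries too, so that cluster is not set apart by the first 3 genes. For Ctsk the authors' deposited table gives a mean signal of 0.378 in LC427 and 0.177 in Vehicle there, with log2 folds over other clusters of 3.50 and 1.55. Ctsw was highest in the authors' cluster 3 in LC427 and cluster 5 in Vehicle, which were also the clusters highest for Ncr1, an NK cell receptor, and its log2 folds in the authors' deposited table were 4.01 and 3.16. The clusters of the 2 tables were numbered separately and are not matched to each other.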
